A study of Mus musculus with 12 samples.

Results

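The genes described here are 138 genes of mouse embryonic stem cells that met both of 2 conditions: a higher level after all-trans retinoic acid (ATRA) in wild type cells, and a lower level in receptor knockout cells that had received no ATRA. They were chosen from the deposited gene table by their measured values. Group means were taken on log2(FPKM + 1), where FPKM is a fragment count scaled to transcript length and library size. A gene was kept when WT cells given ATRA exceeded WT vehicle cells by at least 1.5-fold on that scale and TKO vehicle cells lay at least 1.5-fold below WT vehicle cells. In addition, all 3 WT ATRA libraries had to lie above, and all 3 TKO vehicle libraries below, all 3 WT vehicle libraries. Of 23668 genes in the table, 952 met the first condition, 841 met the second and 141 met both. The rule leaves out Hox genes, Stra8, Rec8 and Rarg, which removed 3 of the 141 and leaves 138. The members are 14.5% of the genes that met the first condition and 16.4% of those that met the second.

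The study compared embryonic stem cells labelled RARα-/-,RARβ-/-,RARγ-/- (TKO) with wild type cells (WT), all with the strain label SV129, as 12 RNA libraries in 4 groups of 3: TKO given 1 µM ATRA for 24 h, TKO given the ethanol vehicle, WT given 1 µM ATRA for 24 h, and WT given vehicle. Cells of all 4 groups were grown on gelatinized plates with leukemia inhibitory factor (LIF), which holds embryonic stem cells in a self-renewing state. The sources used here state neither the number of TKO clones nor whether a group's 3 libraries are separate cultures. Differences between the TKO and WT lines that come from their history cannot be told apart from those that come from the receptors. The p-values therefore measure a spread between libraries that may be technical. The columns tell the 3 libraries of a group apart by the letters D, F and G, and values below are listed in that order.

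Retinoic acid, the acid form of vitamin A, binds the retinoic acid receptors RARα, RARβ and RARγ. These nuclear receptors sit on DNA as heterodimers with retinoid X receptors, at direct repeats of a short hexamer. With ligand they recruit coactivators, and without it many of them hold corepressors. In embryonic stem cells retinoic acid is a classical inducer of exit from pluripotency and of neural, endodermal and germline genes.

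The genotype and the cells were checked first. Rarg, whose protein is RARγ, was read at 14.5, 17.4 and 13.1 FPKM in TKO cells given ATRA and at 15.4, 17.5 and 11.8 in TKO vehicle cells, against 87.8, 73.0 and 98.7 in WT cells given ATRA and 52.4, 35.8 and 55.8 in WT vehicle cells. Rara and Rarb transcripts were also still read in TKO cells, at 8.54 ± 0.852 and 0.132 ± 0.00861 FPKM with vehicle, against 11.1 ± 2.64 and 0.361 ± 0.137 in WT vehicle cells (SD, n = 3 each). The files do not show which exons the reads covered. All 7 embryonic stem cell markers exceeded 1 FPKM in every group, and their summed level was 6130 to 6410 FPKM in TKO with ATRA, 6230 to 6640 in TKO vehicle, 4600 to 5550 in WT with ATRA and 7180 to 8330 in WT vehicle. The 7 fibroblast markers summed to 12.5 to 16.6, 12.5 to 13.4, 12.5 to 16.4 and 10.7 to 16.1 FPKM in the same order, with Col1a2, Col3a1, Dcn and Lum under 0.1 FPKM in all 4 groups. The 7 extraembryonic endoderm markers, with Afp under 0.1 FPKM throughout, summed to 15.6 to 25.6, 17.2 to 23.6, 25.3 to 32.2 and 6.22 to 11.3 FPKM. The 7 trophoblast markers summed to 32.6 to 119 and 33.1 to 119 FPKM in the TKO groups, against 19.9 to 21.5 in WT with ATRA and 17.1 to 18.9 in WT vehicle. The 6 neural markers, with Neurog2 under 0.1 FPKM in all 4 groups, summed to 46.0 to 56.3 FPKM in TKO with ATRA and 44.4 to 53.1 in TKO vehicle, against 28.6 to 31.7 in WT with ATRA and 31.9 to 45.6 in WT vehicle. Pax6, a neural marker here, is the 1 member among all these markers, and it was lower in TKO vehicle by the choice of members while the neural sum was not. The 6 germ cell markers, all above 1 FPKM in every group, summed to 45.7 to 53.4 and 46.9 to 58.5 FPKM in the TKO groups, against 55.5 to 101 in WT with ATRA and 38.1 to 84.6 in WT vehicle. The part of any of these markers in the results below was not tested. In bulk RNA, fewer cells of a type and less RNA per cell cannot be told apart. Each library read 11397 to 12193 genes at 1 FPKM or more.

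The members were mostly genes of low to moderate level. Their presence in untreated WT cells, higher level with ATRA and lower level in TKO vehicle cells largely follow from the rule that chose them. Their median level was 1.86 FPKM in TKO cells given ATRA, 1.8 in TKO vehicle cells, 9.52 in WT cells given ATRA and 4.6 in WT vehicle cells. In TKO vehicle cells 46 members averaged under 1 FPKM, against 5 in WT vehicle cells, and in WT cells given ATRA no member did. Members at 10 FPKM or more numbered 25 in TKO with ATRA, 24 in TKO vehicle, 65 in WT with ATRA and 37 in WT vehicle. The median member kept in TKO vehicle cells 41.7% of its WT vehicle level: 33 members kept under 25%, 70 kept 25% to 50% and 35 kept 50% or more. The largest remainder was 65.1%. The smallest, 0.0281%, was that of H2-Q8, whose estimates in TKO cells lay near 0. The WT vehicle level was itself a median of 46.9% of the level reached with ATRA (13.8% to 67.0%), and 14 members were over 4-fold higher in FPKM with ATRA than with vehicle in WT.

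On the log2(FPKM + 1) scale the median rise with ATRA in WT cells was 0.918 (0.587 to 2.35), and the median difference of TKO vehicle from WT vehicle cells was -0.830 (-2.46 to -0.587). Over all 12362 tested genes, which reached 1 FPKM in 3 or more libraries, the medians were 0.0506 and -0.0209. These differences chose the members and are a description. Among tested genes 7.0% met the first condition and 6.72% the second. All 138 members passed the filter on low values, which WT cells given ATRA met for each of them because every member averaged at least 2.3 FPKM there. The TKO difference was larger in size than the ATRA rise in 68 members and smaller in 70. Just inside the first threshold lay Slc1a5 (0.587), Snx25 (0.588) and Zcchc24 (0.590), and just outside it Dynlt1b (0.576), Capns1 (0.569) and Nhs (0.568). Just inside the second lay Hvcn1 (-0.587), Rhcg (-0.587) and Heg1 (-0.588), and just outside it Mgarp (-0.577), Mertk (-0.576) and Loxl2 (-0.573).

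**Figure D1:**
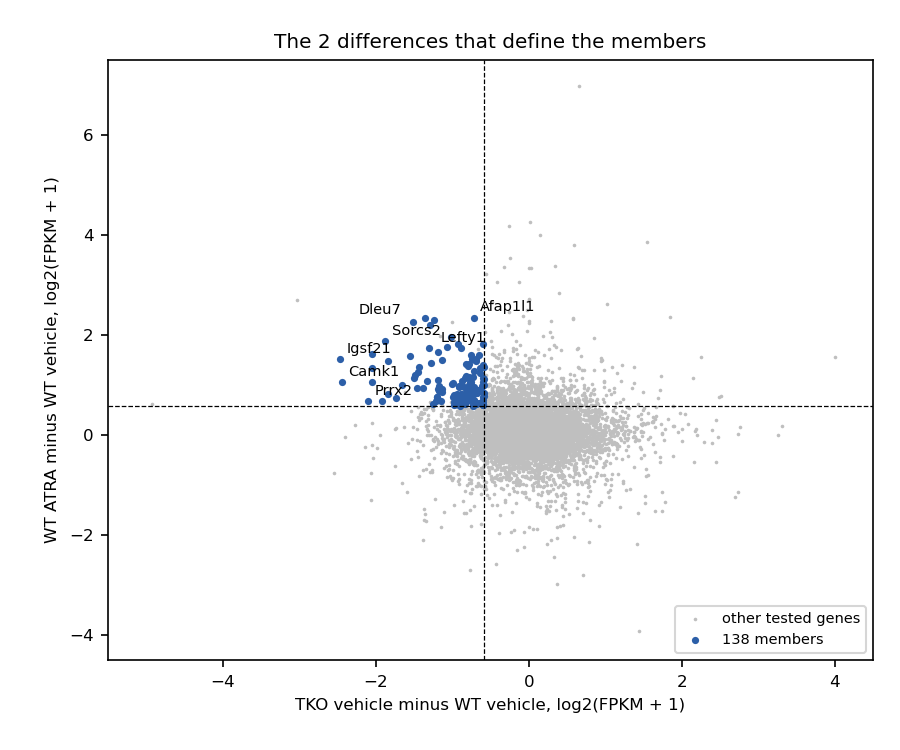
Difference between TKO vehicle and WT vehicle cells (x axis) and between WT cells given ATRA and WT vehicle cells (y axis), both in log2(FPKM + 1), for 138 members in blue and the other tested genes in grey. Dashed lines mark the 1.5-fold thresholds, so the position of the members in the upper left field was fixed by their choice. Grey points in that field had libraries that overlapped or were left out by name. Igsf21 and Camk1 reach furthest to the left and Afap1l1 furthest up among the members.

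**Figure D2:**
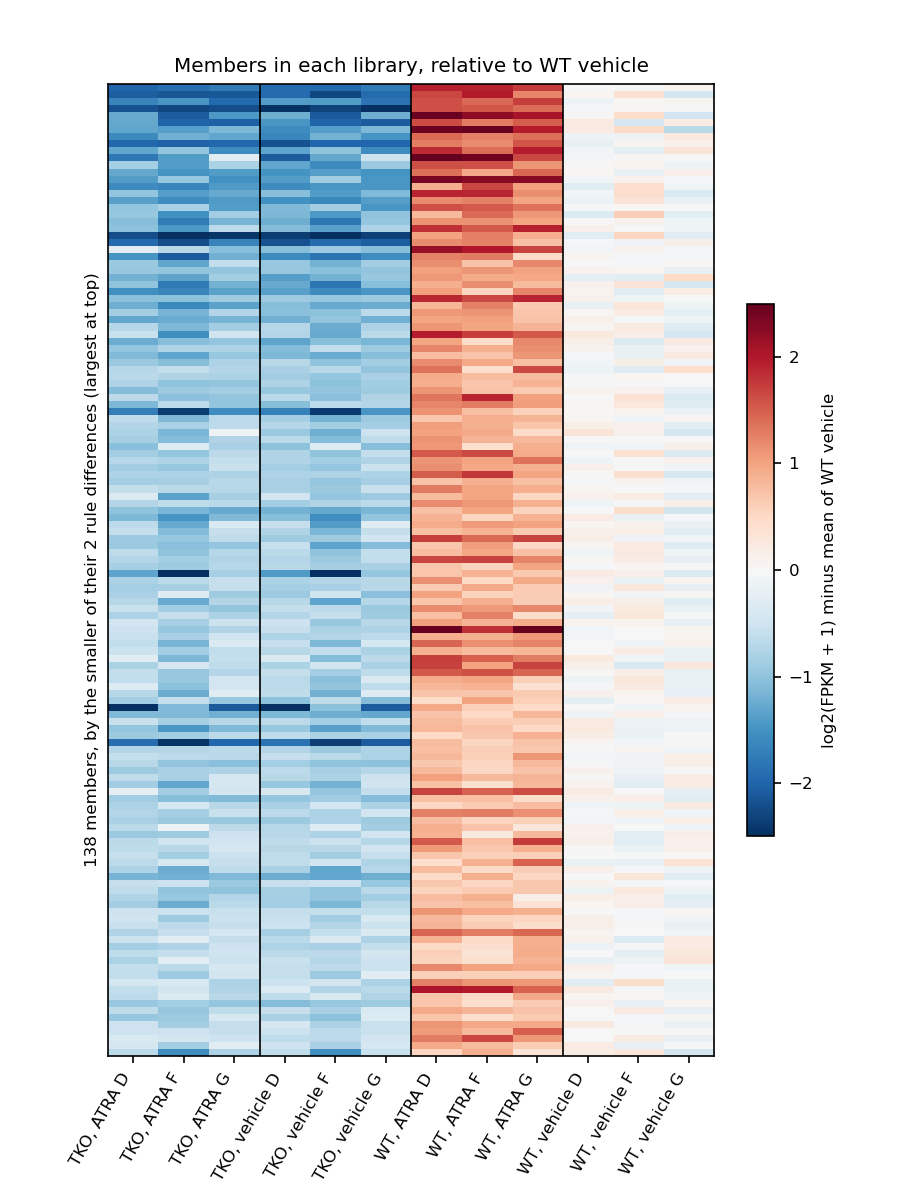
Each row is a member and each column a library, coloured by log2(FPKM + 1) minus the mean of the 3 WT vehicle libraries, with colours saturating at 2.5 in either direction. The 3 TKO ATRA libraries, which had no part in the choice of the members, are as blue as the TKO vehicle libraries, with medians of -0.817 and -0.830. They are still not independent of that choice. The WT vehicle mean was used in it, and TKO ATRA libraries deviate together with the TKO vehicle libraries of the same letter, which were selected low.

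The members with the largest values in both contrasts are given next by role, for 25 leading members ranked by the smaller of their 2 differences. Among receptors and membrane proteins (19 members), Sorcs2 (GRCm38 chromosome 5, 36017180 to 36398139), a sorting receptor that binds neurotrophin precursors, ranked first. It was read at 0.435, 0.542 and 0.71 FPKM in TKO cells given ATRA, 0.515, 0.484 and 0.69 in TKO vehicle cells, 21, 20.7 and 18.2 in WT cells given ATRA and 4.73, 4.52 and 4.92 in WT vehicle cells. Every TKO library was under 1 FPKM and every WT library above 4, with the ATRA libraries about 4.23-fold over vehicle in WT. Cntfr (GRCm38 chromosome 4, 41657498 to 41697089), the ligand-binding chain for ciliary neurotrophic factor, whose signalling chains it shares with LIF, was read at 7.8, 4.35 and 4.18 FPKM in TKO cells given ATRA, 6.76, 4.37 and 4.07 in TKO vehicle cells, 65.3, 51.6 and 60.2 in WT cells given ATRA and 24.4, 15 and 23.2 in WT vehicle cells. TKO D was the highest of the TKO libraries under either treatment and still below the lowest WT library. Islr2 (GRCm38 chromosome 9, 58196297 to 58204319), a leucine-rich repeat membrane protein of growing axons, was read at 10.7, 12 and 7.66 FPKM in TKO cells given ATRA, 9.68, 11.6 and 7.36 in TKO vehicle cells, 69.1, 65.4 and 57.5 in WT cells given ATRA and 21.1, 22.6 and 21.7 in WT vehicle cells. It kept 43.7% of its WT vehicle level in TKO vehicle cells. Over the 19 genes of this role the median rise was 1.01 and the median TKO difference -0.86.

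Among secreted and matrix proteins (16 members), Col13a1 (GRCm38 chromosome 10, 61838236 to 61979108), the transmembrane collagen XIII, was read at 0.554, 0.475 and 0.478 FPKM in TKO cells given ATRA, 0.679, 0.336 and 0.703 in TKO vehicle cells, 19.5, 24.7 and 14 in WT cells given ATRA and 5.71, 7.44 and 3.75 in WT vehicle cells. The WT libraries ranged widely under each treatment, and no TKO library reached 1 FPKM. Lefty1 (GRCm38 chromosome 1, 180935022 to 180938400), a secreted inhibitor of Nodal signalling, was one of the most abundant members, at 21.1, 27.8 and 62 FPKM in TKO cells given ATRA, 17, 30.6 and 52.2 in TKO vehicle cells, 432, 408 and 241 in WT cells given ATRA and 72, 78.1 and 76.2 in WT vehicle cells. Its G libraries were the highest of each TKO group and the lowest of WT with ATRA, and the highest TKO library lay below the lowest WT library. Chi3l1 (GRCm38 chromosome 1, 134182176 to 134190181), a chitinase-like glycoprotein without chitinase activity, was read at 0.103, 0.046 and 0.241 FPKM in TKO cells given ATRA, 0.117, 0.212 and 0.205 in TKO vehicle cells, 5.2, 9.55 and 5.68 in WT cells given ATRA and 1.67, 3.42 and 2.06 in WT vehicle cells. Of the members outside the leading 25, Mdk, the heparin-binding growth factor midkine, had the highest level of this role at 145 ± 17.7 FPKM in TKO cells given ATRA, 151 ± 14.6 in TKO vehicle cells, 705 ± 34.1 in WT cells given ATRA and 245 ± 29.9 in WT vehicle cells (SD, n = 3 each). Wnt3a (GRCm38 chromosome 11, 59248033 to 59290752), a WNT ligand, was scarce, at 0.281 ± 0.118, 0.209 ± 0.121, 2.68 ± 1.34 and 0.887 ± 0.423 FPKM in the same order. Porcn, the acyltransferase that WNT ligands need for secretion, was counted in this role although it is an enzyme and not itself secreted. It averaged 20.8 ± 2.76 and 19.3 ± 3.49 FPKM in the TKO groups, against 61 ± 13.1 in WT with ATRA and 37.3 ± 5.73 in WT vehicle. Mdk and Porcn, like other members named below from outside the leading 25 and the gene lists, were chosen after their values were seen.

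Neuronal and synaptic proteins (13 members) included the member with the largest TKO difference. Igsf21 (GRCm38 chromosome 4, 140026846 to 140246784), an adhesion protein that binds neurexin and promotes inhibitory presynaptic differentiation, was read at 3.48, 3.2 and 3.36 FPKM in TKO cells given ATRA, 2.69, 3.09 and 2.31 in TKO vehicle cells, 61.3, 58.5 and 52.8 in WT cells given ATRA and 19, 19.9 and 19 in WT vehicle cells. All 6 TKO libraries lay between 2.31 and 3.48 FPKM and all 6 WT libraries at 19.0 or above, a log2 difference of -2.46 between the vehicle groups. Cacng6 (GRCm38 chromosome 7, 3424195 to 3435667), a gamma subunit of voltage-gated calcium channels, was read at 2.32, 1.29 and 2.47 FPKM in TKO cells given ATRA, 1.43, 0.995 and 2.14 in TKO vehicle cells, 17.4, 17.4 and 11.8 in WT cells given ATRA and 5.09, 5.41 and 4.54 in WT vehicle cells. Syt7 (GRCm38 chromosome 19, 10389090 to 10453180), a synaptotagmin that senses calcium in vesicle fusion, was read at 1.58, 1.23 and 1.38 FPKM in TKO cells given ATRA, 1.23, 1.41 and 1.21 in TKO vehicle cells, 15.2, 11.1 and 16 in WT cells given ATRA and 5.47, 4.49 and 5.85 in WT vehicle cells. Its TKO libraries spanned 1.21 to 1.58 FPKM, and none of them overlapped a WT library. Grasp (GRCm38 chromosome 15, 101224188 to 101232756), a scaffold of metabotropic glutamate receptors also called tamalin, was read at 14.9, 9.38 and 18.3 FPKM in TKO cells given ATRA, 13.7, 11.4 and 14.1 in TKO vehicle cells, 105, 107 and 60.1 in WT cells given ATRA and 45.5, 42.4 and 41.5 in WT vehicle cells. Among the lower-ranked members of this role, Slc17a7 (GRCm38 chromosome 7, 45163949 to 45176142), a vesicular glutamate transporter, averaged 1.76 ± 0.626 FPKM in TKO cells given ATRA, 1.47 ± 0.497 in TKO vehicle cells, 4.98 ± 1.27 in WT cells given ATRA and 2.8 ± 0.293 in WT vehicle cells.

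Among intracellular signalling proteins (19 members), Camk1 (GRCm38 chromosome 6, 113334124 to 113343984), a kinase activated by calcium and calmodulin, was read at 4.4, 2.82 and 3.65 FPKM in TKO cells given ATRA, 3.85, 3.04 and 3.96 in TKO vehicle cells, 49.6, 59.2 and 46 in WT cells given ATRA and 19.8, 35.2 and 19.9 in WT vehicle cells. The F library of WT vehicle stood above its other two, and all TKO libraries were under 5 FPKM. Its gene overlaps the coding gene Ogg1 on the other strand, and reads of the 2 genes cannot be told apart without strand, which the sources used here do not give. The same limit holds for 57 of 135 members with a GRCm38 position, 19 of which overlap a coding gene on the other strand, Sorcs2 (with Psapl1) among them. Dusp9 (GRCm38 chromosome X, 73639419 to 73643514), a phosphatase that inactivates ERK kinases, was abundant, at 24.4, 32.5 and 30.3 FPKM in TKO cells given ATRA, 23.8, 32.6 and 26.6 in TKO vehicle cells, 203, 183 and 199 in WT cells given ATRA and 69.7, 69 and 90.1 in WT vehicle cells. Its level in TKO vehicle cells was 36.3% of that in WT vehicle cells.

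Transcription factors and cofactors (10 members) had a median TKO difference of -1.17 and a median rise of 0.94. Bhlhe40 (GRCm38 chromosome 6, 108660629 to 108666925), a basic helix-loop-helix repressor first described as a retinoic acid-induced gene, was read at 6.78, 5.42 and 8.39 FPKM in TKO cells given ATRA, 5.67, 6.95 and 6.22 in TKO vehicle cells, 67.2, 70.3 and 48.8 in WT cells given ATRA and 27.9, 27.1 and 32.4 in WT vehicle cells. The TKO libraries lay between 5.42 and 8.39 FPKM, below all WT libraries. Zmiz1 (GRCm38 chromosome 14, 25459185 to 25666743), a coactivator with a PIAS-like zinc finger, was read at 3.67, 4.77 and 2.9 FPKM in TKO cells given ATRA, 3.57, 4.73 and 2.84 in TKO vehicle cells, 40.9, 29.4 and 43.5 in WT cells given ATRA and 9.9, 8.68 and 13.3 in WT vehicle cells. Pax6 (GRCm38 chromosome 2, 105668900 to 105697364), a homeodomain factor of eye and neural development, was low in all groups, at 0.351, 0.227 and 0.703 FPKM in TKO cells given ATRA, 0.188, 0.359 and 0.59 in TKO vehicle cells, 5.56, 4.83 and 4.98 in WT cells given ATRA and 1.62, 1.56 and 3.34 in WT vehicle cells. No TKO library of Pax6 reached 1 FPKM, and WT with ATRA spanned 4.83 to 5.56. Prrx2, a paired-type homeodomain factor of mesenchyme ranked below the leading 25, averaged 2.38 ± 0.657 FPKM in TKO cells given ATRA, 2.39 ± 0.61 in TKO vehicle cells, 22 ± 2.0 in WT cells given ATRA and 13.4 ± 0.642 in WT vehicle cells.

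Metabolic enzymes (14 members) were led by Cyp11a1 (GRCm38 chromosome 9, 58006411 to 58027023), the mitochondrial enzyme that cleaves the cholesterol side chain in the first step of steroid synthesis. It was read at 1.54, 1.92 and 1.07 FPKM in TKO cells given ATRA, 2.03, 2.02 and 1.21 in TKO vehicle cells, 23.3, 20.2 and 25.4 in WT cells given ATRA and 6.45, 7.18 and 7.36 in WT vehicle cells. Gdpd5 (GRCm38 chromosome 7, 99381414 to 99461877), which cleaves GPI anchors and takes part in neuronal differentiation, was read at 0.869, 1.55 and 0.733 FPKM in TKO cells given ATRA, 0.877, 1.69 and 0.808 in TKO vehicle cells, 24.5, 22.8 and 22.9 in WT cells given ATRA and 3.71, 4.35 and 3.76 in WT vehicle cells. Its ATRA level in WT was 5.95 times the vehicle level. The most abundant enzyme, uridine phosphorylase Upp1, averaged 189 ± 23.9 FPKM in TKO with ATRA and 182 ± 24.9 in TKO vehicle, against 459 ± 38.5 in WT with ATRA and 295 ± 41.7 in WT vehicle.

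Among MHC class I genes and related ligands (6 members), H2-Q7 (GRCm38 chromosome 17, 35439155 to 35443773), which encodes the class Ib molecule Qa-2, was read at 0.851, 0.755 and 1.11 FPKM in TKO cells given ATRA, 0.537, 0.772 and 1.09 in TKO vehicle cells, 23.9, 26.5 and 16.9 in WT cells given ATRA and 4.26, 5.34 and 1.86 in WT vehicle cells. The G library of WT vehicle was the lowest WT library and exceeded the highest TKO library by less than 1 FPKM. H2-Q8, H2-Q9, H2-Q10 and H2-K1 were also members, as was Raet1b, a ligand of the NKG2D receptor whose name stands for retinoic acid early transcript. Raet1b was read at 0.719, 0.301 and 9.39e-05 FPKM in TKO cells given ATRA, 2.08e-04, 0.122 and 0.00675 in TKO vehicle cells, 8.46, 7.44 and 5.76 in WT cells given ATRA and 0.999, 1.26 and 1.06 in WT vehicle cells. These 6 genes belong to families of related genes, and reads may be split between similar copies, so their separate values are uncertain. How far this holds for each of them was not tested. Their median rise of 1.67 was the largest of the roles, beside a median TKO difference of -0.78.

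The remaining leading members had other roles. Adad2 (GRCm38 chromosome 8, 119612747 to 119616924), a germ cell protein with an adenosine deaminase domain, averaged 1.85 ± 0.645 FPKM in TKO cells given ATRA, 1.68 ± 0.398 in TKO vehicle cells, 12.1 ± 2.79 in WT cells given ATRA and 5.33 ± 2.52 in WT vehicle cells. Cotl1 (GRCm38 chromosome 8, 119809222 to 119840544), an actin filament-binding protein, was read at 37.9, 28.2 and 49.3 FPKM in TKO cells given ATRA, 36.2, 29.7 and 45.3 in TKO vehicle cells, 277, 227 and 299.95 in WT cells given ATRA and 84.8, 77.2 and 71.5 in WT vehicle cells. Fignl2 (GRCm38 chromosome 15, 101050194 to 101078567), a relative of the microtubule-severing protein fidgetin, was read at 2.55, 2.43 and 2.56 FPKM in TKO cells given ATRA, 2.08, 2.5 and 2.51 in TKO vehicle cells, 32.6, 30.6 and 40.1 in WT cells given ATRA and 11.1, 13.6 and 14.2 in WT vehicle cells. The TKO libraries of Fignl2 did not exceed 2.56 FPKM. Dleu7 (GRCm38 chromosome 14, 62276231 to 62293047), named for a region deleted in human lymphocytic leukaemia, was read at 1.42, 0.371 and 1.12 FPKM in TKO cells given ATRA, 1.47, 0.346 and 1.48 in TKO vehicle cells, 31, 26.1 and 23.1 in WT cells given ATRA and 4.88, 6.94 and 3.12 in WT vehicle cells. It overlaps the coding gene Rnaseh2b on the other strand. Cidea (GRCm38 chromosome 18, 67343604 to 67367785), a lipid droplet protein, Ankrd44 (GRCm38 chromosome 1, 54645340 to 54926387), an ankyrin repeat protein of protein phosphatase complexes, and Eif4e3 (GRCm38 chromosome 6, 99625135 to 99666771), a cap-binding protein, averaged 0.444 ± 0.176, 0.149 ± 0.0936 and 0.868 ± 0.523 FPKM in TKO vehicle cells, against 2.35 ± 0.982, 2.29 ± 0.676 and 3.57 ± 0.322 in WT vehicle cells. With ATRA the same 3 genes averaged 0.427 ± 0.203, 0.193 ± 0.0964 and 0.849 ± 0.436 FPKM in TKO cells, against 9.58 ± 2.82, 6.21 ± 0.671 and 8.61 ± 0.511 in WT cells. Aqp3, a water and glycerol channel ranked below the leading 25, varied with the library letter and was read at 57.9, 19.3 and 81.8 FPKM in TKO cells given ATRA, 54.2, 19.9 and 74.1 in TKO vehicle cells, 238, 266 and 231 in WT cells given ATRA and 169, 160.1 and 115 in WT vehicle cells. The F libraries were the lowest of each TKO group.

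**Figure D3:**
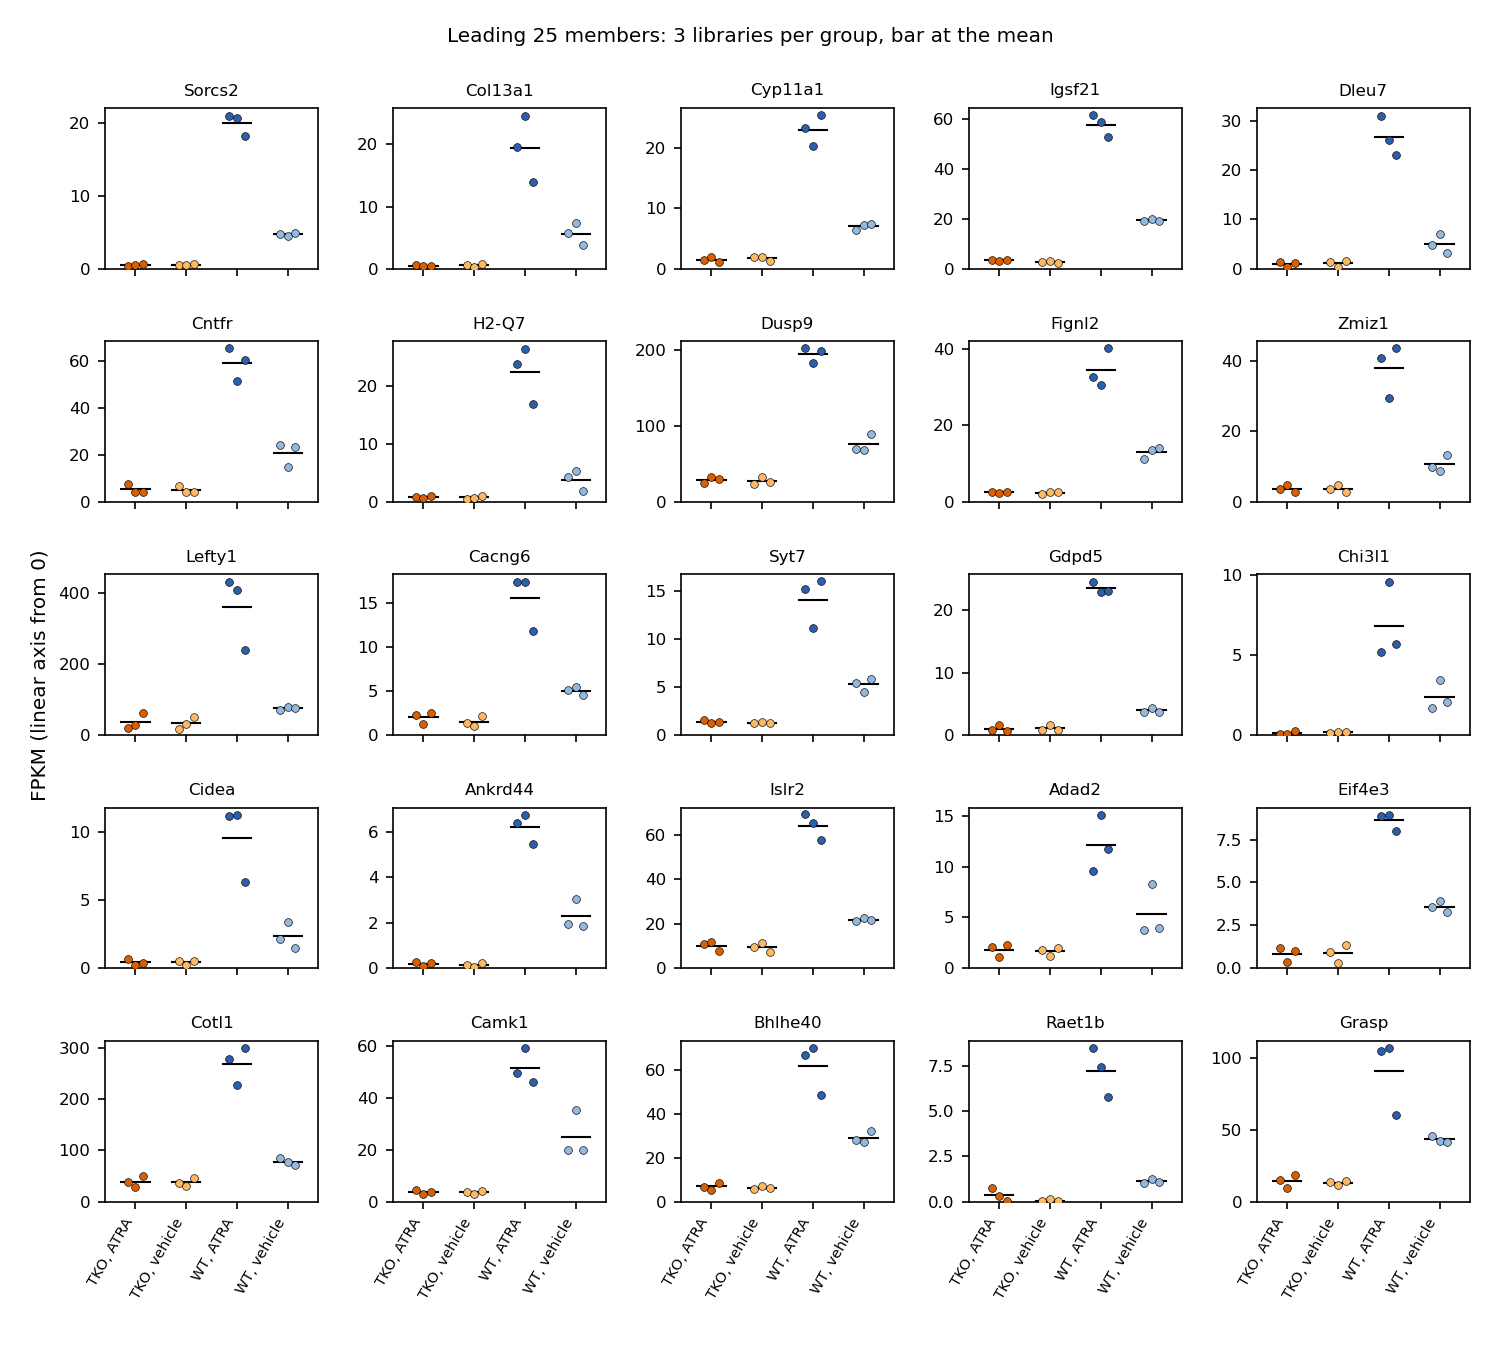
FPKM on linear axes from 0 for the 25 leading members, with 1 point per library (D, F and G from left to right) and a bar at the mean of 3. In all 25 genes the TKO points with and without ATRA lie together at the bottom of the panel, below all WT vehicle points, and the WT ATRA points lie above those. For the TKO vehicle and WT ATRA points this order was fixed by the choice of members. All TKO ATRA libraries lay below all WT vehicle libraries in 22.8% of tested genes.

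The promoters of some leading members, printed below, show what sequence lay at their annotated start sites. They come from the RefSeq table for GRCm38.p6, run from 250 bases before to 50 bases after the annotated start, and are printed 5′ to 3′ on the gene's strand. Cyp11a1, at 1 of its 2 annotated starts, and H2-Q7 hold the nuclear receptor hexamer AGGTCA, in capitals, beginning 28 and 160 bases before the start. Igsf21 holds 3 GC boxes (GGGCGG, in capitals), in 1 run in which they adjoin or share a base. Camk1, with the largest difference between TKO with ATRA and WT vehicle, holds neither motif. Of the leading members whose promoters are not printed, Ankrd44, Dleu7, Cntfr, Islr2 and Grasp held GC boxes at an annotated start. Col13a1, Fignl2, Zmiz1, Cacng6, Chi3l1 and Adad2 held neither motif. The other leading members, Sorcs2 and Dusp9 among them, had no matched promoter.
Cyp11a1, chr9:58014702-58015001, plus strand: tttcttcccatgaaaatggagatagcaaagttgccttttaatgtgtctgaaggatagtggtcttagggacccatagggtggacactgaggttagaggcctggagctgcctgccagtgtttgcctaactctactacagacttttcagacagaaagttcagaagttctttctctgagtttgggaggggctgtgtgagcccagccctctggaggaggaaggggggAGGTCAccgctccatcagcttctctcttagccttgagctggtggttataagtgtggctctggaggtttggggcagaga
H2-Q7, chr17:35438905-35439204, plus strand: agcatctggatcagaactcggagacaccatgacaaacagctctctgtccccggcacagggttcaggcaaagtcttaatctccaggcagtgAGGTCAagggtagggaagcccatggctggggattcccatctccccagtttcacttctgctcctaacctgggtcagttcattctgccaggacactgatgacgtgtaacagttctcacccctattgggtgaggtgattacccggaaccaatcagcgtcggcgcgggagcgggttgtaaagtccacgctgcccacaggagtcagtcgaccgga
Igsf21, chr4:140246762-140247061, minus strand: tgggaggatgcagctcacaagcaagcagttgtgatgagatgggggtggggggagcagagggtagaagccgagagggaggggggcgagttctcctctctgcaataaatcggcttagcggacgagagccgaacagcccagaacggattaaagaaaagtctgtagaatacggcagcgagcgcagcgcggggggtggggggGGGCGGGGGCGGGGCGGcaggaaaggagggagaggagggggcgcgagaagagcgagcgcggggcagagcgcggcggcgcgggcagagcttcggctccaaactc
Camk1, chr6:113343873-113344172, minus strand: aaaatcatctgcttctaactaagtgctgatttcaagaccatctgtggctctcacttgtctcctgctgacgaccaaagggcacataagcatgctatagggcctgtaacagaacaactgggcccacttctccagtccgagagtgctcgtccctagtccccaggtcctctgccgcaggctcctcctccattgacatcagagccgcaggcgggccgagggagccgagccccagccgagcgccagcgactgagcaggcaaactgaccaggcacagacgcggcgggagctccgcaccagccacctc

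The motifs were counted over 141 promoters of the 99 members that matched a symbol in the table, on both strands. No member promoter held a perfect direct repeat of AGGTCA, allowing G for its opening A and T for the G before its TCA, with a spacer of 5, 2 or 1 bases (DR5, DR2 and DR1), the arrangements bound by retinoic acid receptors with retinoid X receptors. Such repeats were rare in this window in general: 0.0508%, 0.0915% and 0.315% of tested genes and 0.115%, 0.311% and 0.263% of all 27025 genes of the table held them. AGGTCA alone, which the direct repeats may contain, was in 23 of 99 members (23.2%), beside 14.7% of tested genes and 18.1% of all genes. GGGCGG, chosen for having no special relation to retinoic acid, was in 68 of 99 members (68.7%), 70.7% of tested genes and 38.2% of all genes. The median GC content of the promoters was 60.7% in members, 61.0% in tested genes and 52.7% in all. These counts describe letters within 300 bases of sequence and say nothing of binding there or elsewhere.

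Whether ATRA raised the members in TKO cells was a comparison in which the TKO ATRA libraries had no part in the choice. The TKO vehicle libraries were used by it, and were required to be low. No member was called in either direction by limma on log2(FPKM + 1) with Benjamini-Hochberg adjustment over 12362 genes, where 0.0% of tested genes were called higher and 0.0% lower. At an unadjusted p under 0.05, 1 member (Igsf21, higher) was among 12 tested genes (0.0971%). The median difference, TKO with ATRA minus TKO vehicle, was 0.0217 over members and -0.0029 over all tested genes. It lay between -0.203 and 0.328 for every member. In TKO cells 45 members with ATRA and 46 with vehicle averaged under 1 FPKM, where log2(FPKM + 1) compresses any change. 87 members were above 0 and 51 below, beside 48.0% of all tested genes above 0. Igsf21 had a difference of 0.24 ± 0.10 (SE; 95% interval 0.03 to 0.45), and its 3 TKO ATRA libraries, at 3.48, 3.2 and 3.36 FPKM, lay above its 3 TKO vehicle libraries, at 2.69, 3.09 and 2.31. The largest difference was that of Raet1b, 0.33 ± 0.18 (SE; 95% interval -0.07 to 0.73). It rests on low values, 0.719, 0.301 and 9.39e-05 FPKM with ATRA and 2.08e-04, 0.122 and 0.00675 with vehicle, which overlap. Cacng6 followed with 0.27 ± 0.21 (SE; 95% interval -0.19 to 0.73). The lowest were Prss50, a serine protease of the testis, with -0.20 ± 0.18 (SE; 95% interval -0.60 to 0.19), Fndc5, the precursor of irisin, with -0.15 ± 0.15 (SE; 95% interval -0.48 to 0.18), and Cyp11a1 with -0.14 ± 0.16 (SE; 95% interval -0.49 to 0.22). For Lefty1 the interval was the widest of the leading members, 0.14 ± 0.42 (SE; 95% interval -0.79 to 1.06), and its TKO libraries of the same letter moved together. The intervals do not show that the levels with and without ATRA are equal.

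TKO libraries of the same letter deviated together from their group means (correlation 0.604 to 0.864 across genes, which are not independent replicates). With the replicate block on the letter among TKO libraries alone, 0 members were called, beside 3 of 12362 tested genes, and the lowest adjusted p of a member was 0.734. At an unadjusted p under 0.05 there were 10 of 138 members, 9 of them higher, beside 829 of 12362 tested genes, a share near that of the members. Among the 10 were Cacng6 (0.27, 95% interval 0.09 to 0.44), Igsf21 (0.24, 0.06 to 0.42) and Prss50 (-0.20, -0.37 to -0.04). The wider intervals given above for these genes are from the fit without the block. By letter, ATRA minus vehicle had a member median of 0.0327, 0.0095 and 0.0296 in TKO for D, F and G. Over all tested genes the TKO medians were 0.0016, 0.0021 and -0.0119. The TKO vehicle libraries subtracted here were required to be low in members. In WT the member medians were 0.991, 0.838 and 0.942, with 138 of 138 members above 0 in each letter, as the choice of members requires.

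The second comparison set TKO cells given ATRA against WT vehicle cells, which asks whether ATRA brought the members to the untreated WT level. The WT vehicle libraries had a part in the choice of the members and the TKO ATRA libraries had none. 126 of 138 members were lower in TKO cells given ATRA and none was higher (limma, Benjamini-Hochberg adjusted p under 0.05), beside 13.1% of tested genes lower and 11.8% higher. H2-Q8, H2-Q9, Rhcg and Rhobtb1, counted among the 126, averaged under 1 FPKM in both groups compared. They passed the filter on low values only through WT cells given ATRA, where members were chosen to be high. The median difference was -0.817 over members (-2.45 to -0.458) and -0.0235 over tested genes. In 135 members all 3 TKO ATRA libraries lay below all 3 WT vehicle libraries, which held for 22.8% of tested genes. The exceptions were Gstt1, a glutathione transferase, Prph, the intermediate filament peripherin, and Plcb3, a phospholipase C. TKO vehicle libraries, which were selected low, deviate together with the TKO ATRA libraries of the same letter, and the WT vehicle libraries also served to choose the members, so neither this count nor the p-values that follow are independent of the choice.

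Igsf21 and Camk1, with the largest TKO vehicle minus WT vehicle differences among the values that chose the members (-2.46 and -2.44), also had the largest here, -2.23 ± 0.10 (SE; adjusted p = 9.3e-07) for Igsf21 and -2.45 ± 0.21 (SE; adjusted p = 5.2e-05) for Camk1. Of the other leading members, Col13a1 differed by -2.10 ± 0.22 (SE; adjusted p = 0.00014), Fignl2 by -1.98 ± 0.12 (SE; adjusted p = 6.6e-06), Bhlhe40 by -1.95 ± 0.16 (SE; adjusted p = 4.4e-05) and Sorcs2 by -1.88 ± 0.11 (SE; adjusted p = 3.3e-06). Dusp9 differed by -1.36 ± 0.14 (SE; adjusted p = 0.00014) and Cotl1 by -1.03 ± 0.20 (SE; adjusted p = 0.0039). Of the 12 members that did not pass, adjusted p ran from 0.054 to 0.11. They were Ccbl2, Cmbl, Cuedc1, Glis2, Gstt1, H2-K1, Lefty1, Lrtm2, Plcb3, Prph, Slc17a7 and Wnt3a. Lefty1 differed by -1.16 ± 0.42 (SE; adjusted p = 0.065): its TKO ATRA libraries, at 21.1, 27.8 and 62 FPKM, did not overlap its WT vehicle libraries, at 72, 78.1 and 76.2, but were spread widely among themselves. Wnt3a differed by -0.54 ± 0.23 (SE; adjusted p = 0.11) and Slc17a7 by -0.48 ± 0.20 (SE; adjusted p = 0.10).

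**Figure D4:**
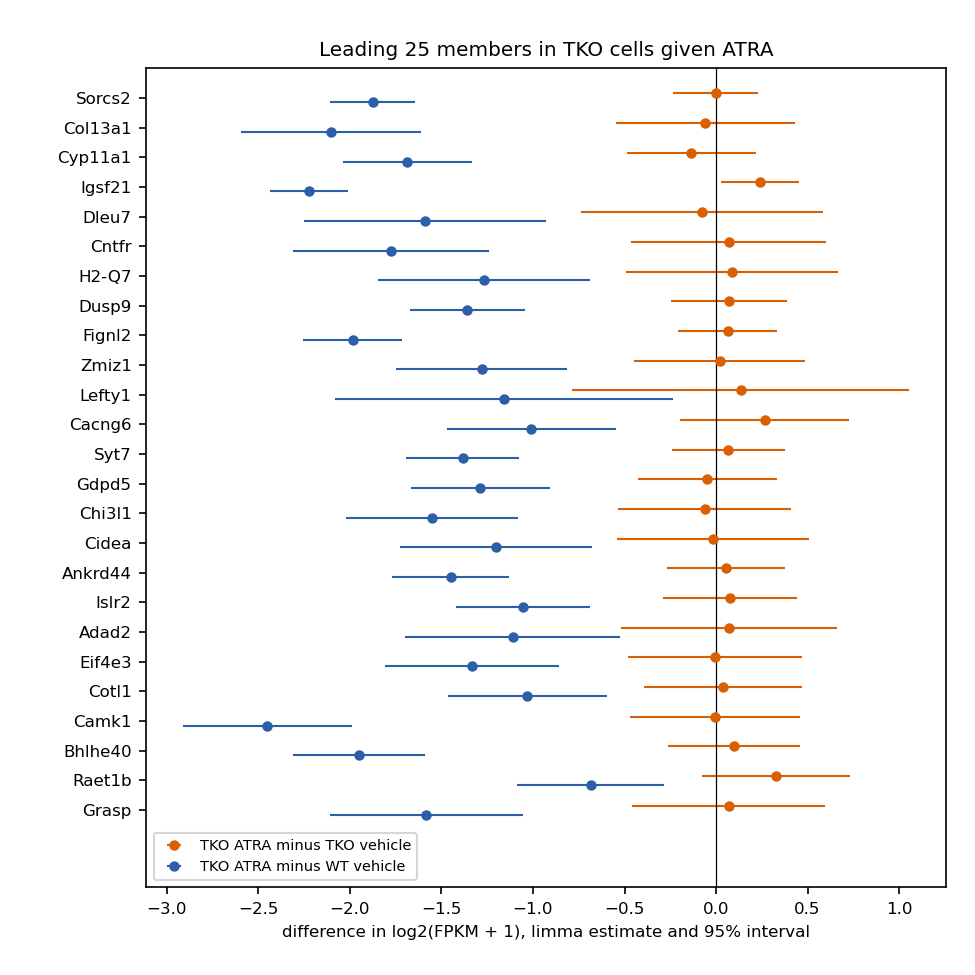
Differences in log2(FPKM + 1) for the 25 leading members, as limma estimates with 95% intervals: TKO with ATRA minus TKO vehicle in orange and TKO with ATRA minus WT vehicle in blue. Both sets are from the fit without the replicate block. The orange intervals cover 0 in all but Igsf21, and the blue intervals lie below 0 in all 25. With the block among TKO libraries, the interval of Cacng6 also left out 0.

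By role, the members called lower in TKO cells given ATRA than in WT vehicle cells were 19 of 19 receptors and membrane proteins, 14 of 16 secreted and matrix proteins, 18 of 19 signalling proteins, 9 of 10 transcription factors and cofactors, 11 of 13 neuronal and synaptic proteins and 7 of 7 channels and transporters. They were 11 of 14 metabolic enzymes, 6 of 6 actin cytoskeleton proteins, 5 of 6 MHC class I genes and related ligands, 3 of 3 germline genes and 23 of 25 genes that were not grouped. These counts stand beside 126 of 138 over all members and 13.1% of tested genes. They are not independent of the choice of members, and no role was tested against another. The roles were assigned after the members were known. ATRA minus vehicle in TKO had role medians between -0.0136 (secreted and matrix proteins) and 0.0955 (neuronal and synaptic proteins).

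**Figure D5:**
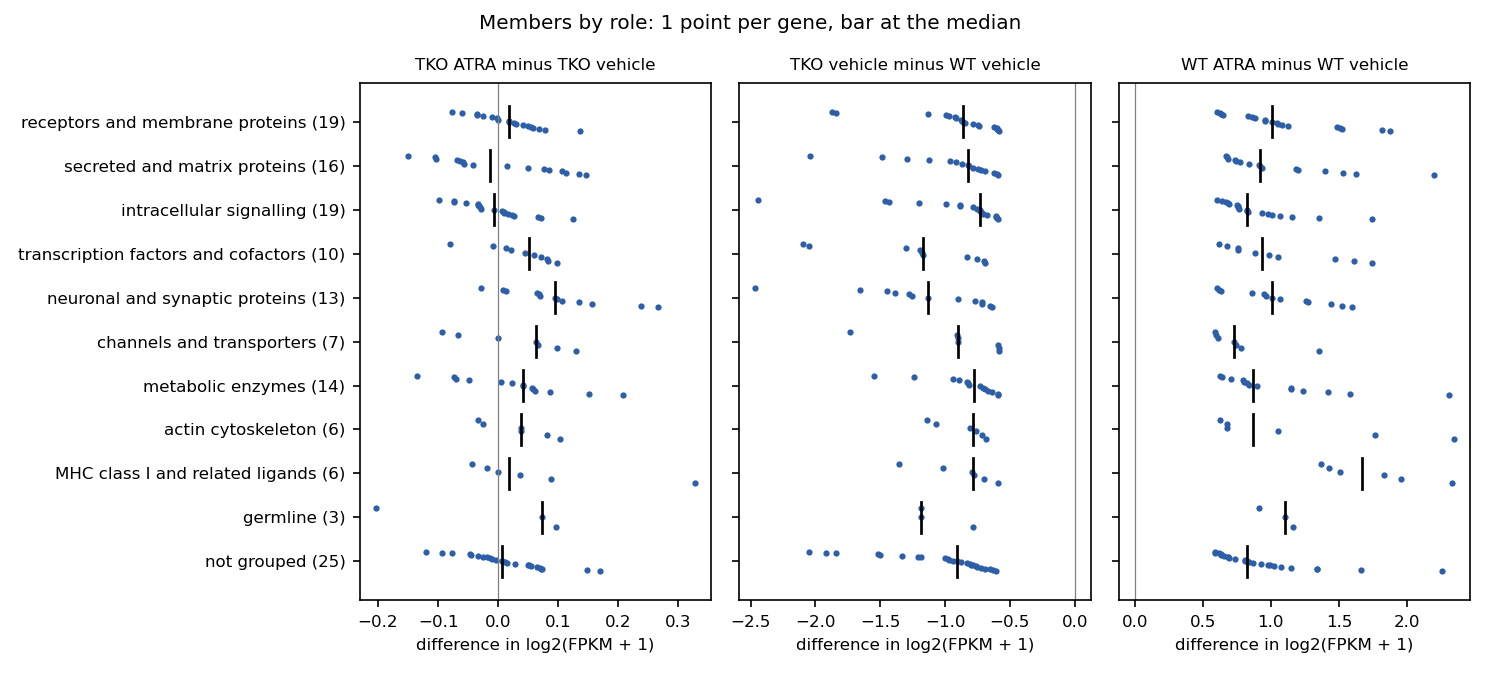
Members by role, with 1 point per gene and a bar at the median, for TKO with ATRA minus TKO vehicle (left), TKO vehicle minus WT vehicle (middle) and WT with ATRA minus WT vehicle (right), in log2(FPKM + 1). The left axis covers a far narrower range than the others; the middle and right differences chose the members.

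The members were set against gene lists of known pathways. Of 36 tested genes on a list of known retinoic acid targets, 5 were members, among them Bhlhe40, Dleu7, Lefty1 and Raet1b (13.9% of the list, 3.62% of the members). In WT cells given ATRA 29 of the 36 rose and none fell, with a median of 1.22, beside 11.6% of all tested genes higher and 5.14% lower. The split of all calls, 1428 higher and 635 lower, became 1067 higher and 1038 lower under median-of-ratios scaling, which moved the median of all genes from 0.0506 to -0.0334. In TKO vehicle cells against WT vehicle cells, 6 of the 36 were higher and 7 lower (median 0.0068), beside 11.8% and 12.8% of tested genes. None was called for ATRA in TKO cells (median -0.0098), and in TKO with ATRA against WT vehicle 6 were higher and 7 lower. 4 of 18 tested genes of a list of synapse and neuron membrane proteins were members (22.2%), among them Camk1, Igsf21 and Slc17a7, and 2 of the 18 were higher and 4 lower in TKO with ATRA than in WT vehicle. Other lists held 1 member each: Pax6 of 9 neural genes, Lefty1 of 19 TGF-beta and BMP genes, Wnt3a of 13 WNT genes and Slc1a5, a glutamine transporter, of 22 solute carriers. No member was found among 32 pluripotency genes, 17 LIF and STAT3 genes, 7 primed epiblast genes, 17 extraembryonic endoderm genes, 11 trophoblast genes, 3 mesoderm genes, 23 germline genes, 19 FGF and ERK feedback genes, 31 cell cycle genes, 3 feeder fibroblast genes or 16 retinoid binding and metabolism genes that were tested. Members were 138 of all 12362 tested genes, a share at which lists of these sizes would hold few members or none. Whether any list held more or fewer members than that share was not tested. The lists do not hold every gene of their subject. Adad2, Piwil4 and Prss50, members with the germline role, and Dusp9, which acts on ERK kinases, were on none of them.

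Some members were neighbours in the genome. Distances here run between annotated start sites and are not gaps between genes. Of 370 tested genes within 100 kb of a member, 12 were members (3.24%), beside 1.1% of the 12218 genes with a GRCm38 position. The 6 pairs were Ndufa4l2 and Nxph4 (19.6 kb apart), Sncb and Tspan17 (22.8 kb), Gdpd5 and Serpinh1 (28.2 kb), H2-Q10 and H2-Q7 (30.9 kb), Cntfr and Enho (56.8 kb), and Cacng6 and Cacng7 (91.2 kb). Serpinh1, a collagen chaperone, was read at 26, 36.4 and 28.5 FPKM in TKO cells given ATRA, 27.1, 36.4 and 34.1 in TKO vehicle cells, 136, 142 and 120.5 in WT cells given ATRA and 59.4, 69.5 and 46.6 in WT vehicle cells. Cacng7, a calcium channel gamma subunit like Cacng6, was read at 24.6, 21 and 27.2 FPKM in TKO cells given ATRA, 24.3, 22.2 and 25.3 in TKO vehicle cells, 92.2, 88.8 and 116 in WT cells given ATRA and 52.5, 46.9 and 62.9 in WT vehicle cells. The 358 neighbours that were not members had a median TKO vehicle minus WT vehicle difference of -0.155, beside -0.021 over all placed genes, and 239 of them were below 0. Their median ATRA rise in WT was 0.112, beside 0.0515. Without the H2 genes, 10 of 344 neighbours (2.91%) were members. Chromosomes 10 and 4 held 14 members each, 10.1% of the members, beside 4.8% and 6.71% of tested genes. Chromosome 6, with Camk1, Bhlhe40 and Eif4e3 among its 9 members, had a median TKO vehicle minus WT vehicle difference of -0.239 over its 589 tested genes, and chromosome 11 had one of 0.205 with 6 members among 1062. With each gene's TKO difference centred on the median of its own chromosome, 121 genes met both conditions, 117 of them members. 5 of the 9 chromosome 6 members were not among them.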

How the data were processed

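RNA of 12 mouse embryonic stem cell libraries was sequenced from TruSeq libraries as single-end reads of 51 bp, per the labels' protocols. The authors deposited FPKM for each gene. The unit is in no header and was read from the values. STAR, Cufflinks and GRCm38 appear, with no version or role, per the submitters' processing notes. FPKM holds no depth, so no counting interval was possible, and the total depth per library is unknown. The table held 23686 rows, of which 18 exact duplicates were removed. Its positions are not GRCm38 positions, so printed coordinates come from GENCODE vM21 (135 of 138 members matched by symbol) and promoters from RefSeq GRCm38.p6.

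Differences in log2(FPKM + 1) were tested with limma 3.58.1 (R 4.3.3), with trend and robust moderation, 1 mean per group over 12 libraries (8 residual degrees of freedom) and Benjamini-Hochberg adjustment over 12362 genes at 0.05. This scale understates the change of low genes. The fit was tested on simulated data. Columns carry letters and not the replicate numbers of the titles, so they were assigned to groups. Libraries of the same letter and genotype deviated together (correlation 0.376 to 0.697 in WT and 0.604 to 0.864 in TKO), so the letters pair them within a genotype; this was read from the data, since no label says so.

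The members, the gene lists and the alternatives were chosen with earlier results of these data known. Named genes are the 25 members with the largest value of the smaller rule difference, members on a gene list, the 3 members highest and the 3 lowest for ATRA in TKO, and the 3 nearest each side of each threshold. Some of these genes are left out of the text. Alternatives were another pseudocount, 2 scalings, a threshold of 1, a filter on low values, chromosome centring, a replicate block, other fits and each library left out. Neighbour windows of 50 and 500 kb, the count without H2 genes and motif counts by promoter were added after seeing the data.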

Additional observations from a re-analysis of the deposited data

How the results depend on the processing

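The number of genes that met both conditions, 138, was 336 with a pseudocount of 0.1, all 138 members among them, and 26 with a threshold of 1 on the log2 scale, all of them members. Under median-of-ratios scaling it was 109, under quantile normalization 108 (105 of them members), with the filter on low values 138, with chromosome centring 121, and with 1 library left out 130 to 165. Without the WT ATRA library D it was 130, of which 127 were members. The count of members called for ATRA in TKO was 0 under every alternative, with 1 library left out too (0 to 0), and was 0 with the replicate block on the letter within genotype and 0 with the block in TKO libraries only. The count of members lower in TKO with ATRA than in WT vehicle, 126, was 125 with a replicate block on the letter shared by genotypes, 117 without the filter, 124 with only the 6 libraries compared, 126 without trend or robust moderation, 126 with a pseudocount of 0.1, 127 under each scaling, and 104 to 129 with 1 library left out, lowest without WT vehicle D. Of 722 values of 38 named members under these alternatives, 675 kept their direction and side of the threshold, 40 (of 7 members) fell short of it, 7 newly passed it and 0 reversed. Members within 500 kb made up 2.46% of neighbouring tested genes, and within 50 kb 4.42%. Counted by promoter, AGGTCA was in 27 of 141 member promoters and 1561 of 12544 promoters of tested genes. Levels under 1 FPKM, as in 46 members in TKO vehicle cells, limit the log2(FPKM + 1) scale to small differences.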
